A study of Arabidopsis thaliana with 16 samples.

Results

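The transcripts of 5 genes that code for cold and dehydration protective proteins were followed across 4 genotypes: COR15A (AT2G42540), COR15B (AT2G42530), COR47 (AT1G20440), LTI30 (AT3G50970) and LEA18 (AT2G35300). They were chosen as named genes with earlier results of these data known, so they are not an unselected set. Each was read by 1 probe set, so that 5 of the 13629 genes named here, and 5 of the 22746 probe sets tested, are described. Gynoecia, the female organs of the flower, were dissected by hand at floral stages 8 to 10, when ovules begin to form, and their RNA was put on arrays. Col-0 wild type, the single mutants seu-3 (seu) and ant-1 (ant) and plants with both mutations (seu-3 ant-1, the double mutant, called seu ant) were each sampled 4 times, and every sample was a pool of 15 to 25 gynoecia on its own ATH1 array. Replicates are numbered here in the order of the sample records, so a number links no samples across genotypes. SEU codes for a transcriptional co-regulator and ANT for an AP2-type transcription factor, and the design asks which transcripts respond to the loss of one, the other or both. Plants of all genotypes shared a chamber with days of 16 hours of light at 24 degrees C, and all inflorescences were fixed and kept in cold ethanol before dissection. Nothing in the labels gives the time of day of harvest, and the p-values below measure the spread between these pools.

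Cold-regulated (COR) genes are classic targets of the CBF transcription factors, which bind a short promoter element after plants meet low temperature, and many of them also respond to drying and to the hormone abscisic acid. Their products are mostly hydrophilic proteins that lack a fixed fold in water. They include the chloroplast COR15 proteins, the dehydrins and other late embryogenesis abundant (LEA) proteins, which are best known from cold-treated leaves and from drying seeds. The promoters of several are also under the influence of light and the circadian clock.

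Levels are given as the deposited MAS5 signal, an intensity on a linear scale that the authors brought to a common trimmed mean, and differences as log2 of that signal after raising values below 16 to 16, the floor. SEU itself was lower in both genotypes that carry seu-3 by their labels. Its log2 difference from wild type was -1.72 in seu (limma adjusted p = 0.000274) and -1.82 in seu ant (limma adjusted p = 1.01e-05). ANT is not analysed here. Median signals of the arrays ran from 153.1 to 188.6, between 20.0% and 24.4% of the probe sets of an array lay at the floor, and arrays of 1 genotype correlated with each other at 0.972 to 0.986. A difference was called where limma's adjusted p was below 0.05 and the log2 difference was larger than 0.35 in size. In whole gynoecia, fewer cells of a type and less RNA per cell cannot be told apart.

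In the double mutant, 4 of the 5 transcripts were higher than in wild type, and the fifth, LTI30, did not pass the test. COR15A was 10.5-fold, COR15B 6.44-fold, COR47 2.71-fold and LEA18 2.16-fold the wild-type level, as ratios of geometric means with values at the floor taken as 16. Over all probe sets, 8.3% were called higher and 11.4% lower in this comparison. The median log2 difference of the 5 members was 1.44, against -0.03 over all probe sets. All 5 are shown in the plot of signal by genotype.

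**Figure D1:**
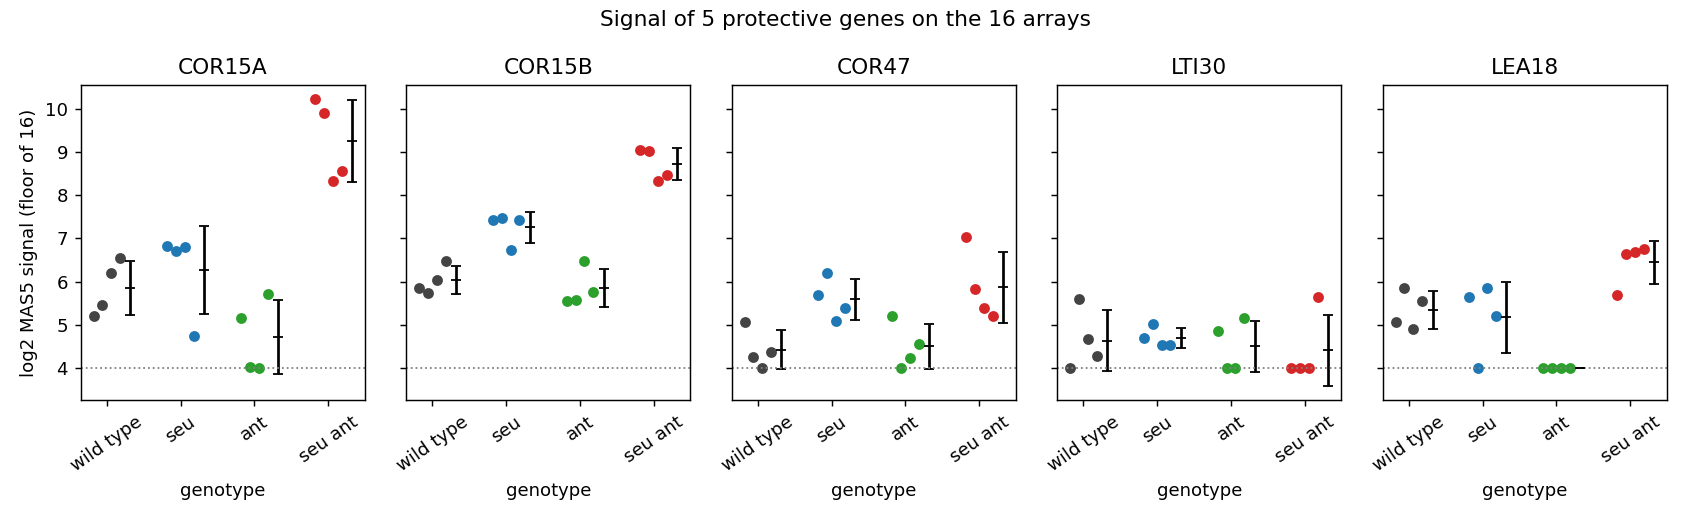
Log2 MAS5 signal (vertical axis, values under 16 set to 16, dotted line) of the 5 genes on the 16 arrays by genotype (horizontal axis); points are arrays, and the bar beside each genotype is the mean with its SD (n = 4). The 4 seu ant arrays of COR15A, COR15B and COR47 lie above all 4 wild-type arrays, while all 4 ant arrays of LEA18 lie at the floor.

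COR15A codes for a small protein of the chloroplast stroma that protects chloroplast membranes during freezing. Its signal on the 4 wild-type arrays was 36.9, 44.1, 73.6 and 93.0. In seu it was 112, 104, 111 and 26.6, and in ant 35.5, 16.2, 3.93 and 52.2, the third of which is below the floor. On the 4 seu ant arrays the signal was 1189.9, 958, 319 and 378. Every seu ant array thus lay above every array of the other genotypes, which overlapped among themselves. The double mutant exceeded wild type by a log2 difference of 3.40 (standard error 0.59 with 4 arrays in each genotype, limma adjusted p = 0.00117). It was also higher than seu by 2.99 (limma adjusted p = 0.00681) and than ant by 4.53 (limma adjusted p = 0.000196). Neither single mutant passed the test against wild type, with log2 differences of 0.41 in seu (95% confidence interval -0.87 to 1.69, limma adjusted p = 0.855) and -1.13 in ant (-2.41 to 0.15, limma adjusted p = 0.321). The single mutants did not pass the test against each other either (1.54, limma adjusted p = 0.218). From lowest to highest mean the order was ant, wild type, seu and seu ant, and only the last step passed the test. The spread within genotypes was wide, with an SD of 0.95 on the log2 scale in seu ant and 1.02 in seu. In seu, 1 array (replicate 4) stood apart at 26.6, and without it the difference from wild type was 0.92 (limma adjusted p = 0.555).

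COR15B is the close relative of COR15A and its next gene on chromosome 2, and its product also resides in the chloroplast stroma. Wild-type arrays gave signals of 57.9, 53.6, 66.0 and 89.2, and ant arrays 47.2, 47.6, 89.5 and 54.4. The seu arrays gave 171, 177, 106 and 171, and the seu ant arrays 527, 523, 323 and 353. These values form 3 levels that do not overlap: wild type together with ant, then seu, then seu ant. The seu level was 1.23 above wild type on the log2 scale (standard error 0.25, limma adjusted p = 0.0240), a 2.34-fold rise. In ant the difference from wild type was -0.19 (95% confidence interval -0.74 to 0.37, limma adjusted p = 0.770). The seu ant level was 2.69 above wild type (standard error 0.25, limma adjusted p = 1.24e-05), 1.46 above seu (limma adjusted p = 0.00342) and 2.87 above ant (limma adjusted p = 1.67e-05), and seu lay 1.41 above ant (limma adjusted p = 0.00953). COR15B had the smallest standard error of the 5 members. Its rise in seu missed the threshold without wild type replicate 1, 2 or 3 or seu replicate 1, 2 or 4, with limma adjusted p between 0.0551 and 0.0763 and log2 differences between 1.13 and 1.23.

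COR15A and COR15B are close relatives, and whether either probe set also reads the other transcript was not tested. Their log2 signals correlated at 0.86 over the 16 arrays. Once each genotype's mean was removed, the correlation of the deviations was 0.20, and the seu array that was lowest for COR15A (replicate 4) was not the lowest for COR15B (replicate 3). Both correlations are descriptions over arrays that share genotypes and scaling.

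COR47 and LTI30 are dehydrins, LEA proteins that bind water and membranes, COR47 an acidic one and LTI30 one rich in lysine and histidine. The COR47 signal was 33.5, 19.2, 7.77 and 20.7 in wild type and 36.9, 6.30, 18.9 and 23.6 in ant. It was 51.5, 73.1, 34.1 and 41.9 in seu and 131, 56.9, 41.9 and 37.0 in seu ant. Both seu and seu ant thus lay above wild type on all 4 arrays, by a narrow margin at the closest pair of arrays, and overlapped each other. In seu ant COR47 rose by 1.44 relative to wild type (standard error 0.40, limma adjusted p = 0.0198) and by 1.36 relative to ant (limma adjusted p = 0.0268). The difference between seu and wild type was 1.16 (95% confidence interval 0.30 to 2.02) but did not pass the test across all probe sets (limma adjusted p = 0.186), and the difference between seu ant and seu was 0.27 (-0.59 to 1.13, limma adjusted p = 0.762). The ant mutant differed from wild type by 0.08 (-0.78 to 0.94, limma adjusted p = 0.989), and seu from ant by 1.09 (limma adjusted p = 0.192). With a floor of 32 the seu ant difference from wild type was 0.85 (limma adjusted p = 0.0929). Without wild type replicate 3, which lies at the floor, it was 1.30 (limma adjusted p = 0.0571). The difference from ant lost its call without ant replicate 2, 3 or 4 or seu ant replicate 1 or 2 (limma adjusted p between 0.0513 and 0.0740). From lowest to highest the means ran wild type, ant, seu and seu ant, and no step between neighbours passed the test.

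LTI30 stayed dim in all genotypes. Wild-type signals were 2.33, 48.5, 25.6 and 19.3, and seu signals 25.8, 32.5, 23.2 and 23.3. The ant arrays gave 28.9, 1.97, 8.07 and 35.4 and the seu ant arrays 12.2, 10.2, 2.82 and 50.1, so that 6 of the 16 arrays lay at the floor, 3 of them seu ant arrays. All 4 genotypes overlapped, and no pair of them passed the test. The log2 difference from wild type was 0.06 in seu (95% confidence interval -0.86 to 0.98, limma adjusted p = 1), -0.14 in ant (-1.06 to 0.78, limma adjusted p = 0.940) and -0.22 in seu ant (-1.14 to 0.69, limma adjusted p = 0.790). With values at the floor, these differences depend on it.

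LEA18 codes for a small LEA protein of the LEA_1 family, a group known from drying seeds and water stress. On wild-type arrays its signal was 33.3, 57.4, 29.7 and 46.6, and on seu arrays 50.1, 4.22, 57.3 and 37.0. All 4 ant arrays lay below the floor, at 2.49, 5.11, 8.56 and 2.77, and the seu ant arrays gave 51.7, 100.1, 103 and 108. Wild type lay above ant on every array, and seu ant above ant likewise, while seu ant and wild type overlapped through 1 seu ant array (replicate 1). With ant at the floor only a bound can be given there, which takes the mean log2 signal of the other genotype against the floor. Set to the floor, the 4 ant arrays had an SD of 0. They thus added nothing to the spread over all arrays from which the LEA18 p-values come. LEA18 was at least 2.52-fold lower in ant than in wild type (limma adjusted p = 0.0497), and the double mutant was at least 5.44-fold above ant (limma adjusted p = 0.000447). Against seu, with 1 of its own arrays at the floor, ant did not pass the test (limma adjusted p = 0.112). The seu ant level was 1.11 above wild type (standard error 0.36, limma adjusted p = 0.0430) and 1.27 above seu (limma adjusted p = 0.0388), while seu differed from wild type by -0.16 (95% confidence interval -0.94 to 0.62, limma adjusted p = 0.935). The order of means was ant, seu, wild type and seu ant, and of the steps between neighbours only that from wild type to seu ant passed the test.

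The LEA18 calls in ant against wild type and in seu ant against wild type and against seu lay close to the threshold. With 1 array left out, the fall in ant stayed called only without seu replicate 2, seu replicate 3 or seu ant replicate 1, and was lost without any other array (limma adjusted p between 0.0562 and 0.113). The rise in seu ant over wild type was lost when any 1 of 11 arrays was left out, each except wild type replicate 2, seu replicates 1, 2 and 3 and seu ant replicate 1, with limma adjusted p between 0.0538 and 0.114. The rise over seu was lost without seu replicate 2 or 4, ant replicate 1 or 4, or seu ant replicate 2, 3 or 4 (limma adjusted p between 0.0511 and 0.0953). With only seu ant and wild type in the fit, the rise over wild type had a limma adjusted p of 0.0572.

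**Figure D2:**
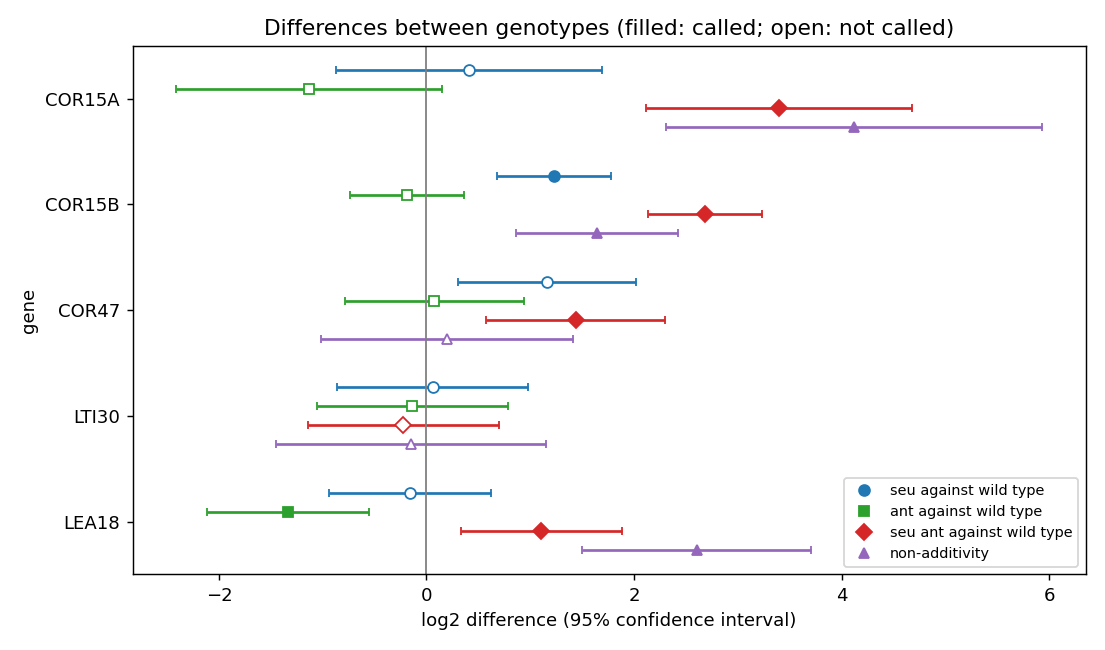
Log2 difference (horizontal axis) of each gene (vertical axis) in seu, ant and seu ant against wild type, and the non-additivity, with 95% confidence intervals from limma; filled symbols were called and open symbols were not. COR15A and COR15B lie furthest to the right in seu ant, and only LEA18 in ant is called on the left.

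Between wild type and the single mutants, 1 member was called in each comparison. In seu, COR15B was the 1 of 5 called higher and none was called lower, where 1.27% of all probe sets were called higher and 0.914% lower. The median log2 difference was 0.41 for the members and -0.02 over all probe sets. In ant, LEA18 was the 1 of 5 called lower and none was called higher, beside 3.03% of all probe sets lower and 1.89% higher. Here the medians were -0.19 and -0.02.

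In the double mutant against each single mutant, COR15A, COR15B and LEA18 were called higher than in seu, 3 of 5, and none lower, while 4.68% of all probe sets were called higher and 5.5% lower. Relative to ant, COR47 joined these 3, which makes 4 of 5, against 9.7% of all probe sets higher and 9.32% lower. The members' medians were 1.27 and 2.44, beside medians of 0 and -0.0027 over all probe sets. Comparing seu with ant directly, COR15B was the 1 member called higher and none was lower, beside 1.87% and 1.06% of all probe sets. At an unadjusted p under 0.05 in limma, LEA18 in ant against wild type was the 1 lower member in the 7 comparisons. COR47 in seu against wild type, and COR15A, COR47 and LEA18 in seu against ant, were higher at that level alone. The share of all probe sets at that level is not given here. These comparisons share arrays, so the counts are not separate pieces of evidence.

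A further comparison asked whether the double mutant equalled the sum of the single mutant effects on the log2 scale. Additivity of the seu and ant effects would put COR15A at a signal of 34.9 in seu ant, and the mean observed was 609. COR15A thus exceeded the additive level by 4.12 on the log2 scale (standard error 0.84, limma adjusted p = 0.0179). For COR15B the additive level was 135 and the observed level 421, a difference of 1.64 (standard error 0.36, limma adjusted p = 0.0234). LEA18 lay 2.60 above the additive level (standard error 0.51, limma adjusted p = 0.0149), a fitted value that depends on the floor. Its arrays at the floor, 4 of ant and 1 of seu, belong to the genotypes that are subtracted, so the floor makes this value smaller. With a floor of 32 the LEA18 value was 1.38 and missed the threshold (limma adjusted p = 0.0501). COR47 was close to additive, with 0.20 (95% confidence interval -1.02 to 1.41, limma adjusted p = 0.897), and LTI30 had -0.15 (-1.45 to 1.15, limma adjusted p = 0.937). In all, 3 of 5 members were called higher than additive and none lower, while 2.77% of all probe sets were called higher and 2.32% lower. Where additivity was taken on the linear signal instead, COR15A exceeded the sum by 658 signal units but missed the threshold (limma adjusted p = 0.0891), COR15B by 282 (limma adjusted p = 0.0169) and LEA18 by 90.4 (limma adjusted p = 0.0188).

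The titles of the samples carry array numbers, and the first 8 and the last 8 each hold 2 arrays of every genotype. The labels do not say that these are batches. The seu ant difference from wild type for COR15A was 4.73 within the first 8 and 2.07 within the last 8, and that for COR15B was 3.24 and 2.14. In seu, COR15A differed from wild type by 1.42 in the first 8 and by -0.60 in the last 8. COR47 was higher in seu ant than in wild type by 1.77 and 1.11, LEA18 by 0.72 and 1.50, and LTI30 had -0.80 and 0.35. The non-additivity of COR15A was 4.06 and 4.19 and that of LEA18 2.80 and 2.41 in the first and the last 8. For the 4 members called in seu ant the direction was thus the same in both sets, and for LTI30 in seu ant it was not. Directions also differed between the sets for COR15A and LEA18 in seu (-0.63 and 0.31 for LEA18), for COR47 (-0.06 and 0.22) and LTI30 (-0.37 and 0.10) in ant, and for the non-additivity of COR47 (0.55 and -0.16) and LTI30 (-0.48 and 0.19). With these 2 sets as a block, each of these 4 calls in seu ant was kept.

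**Figure D3:**
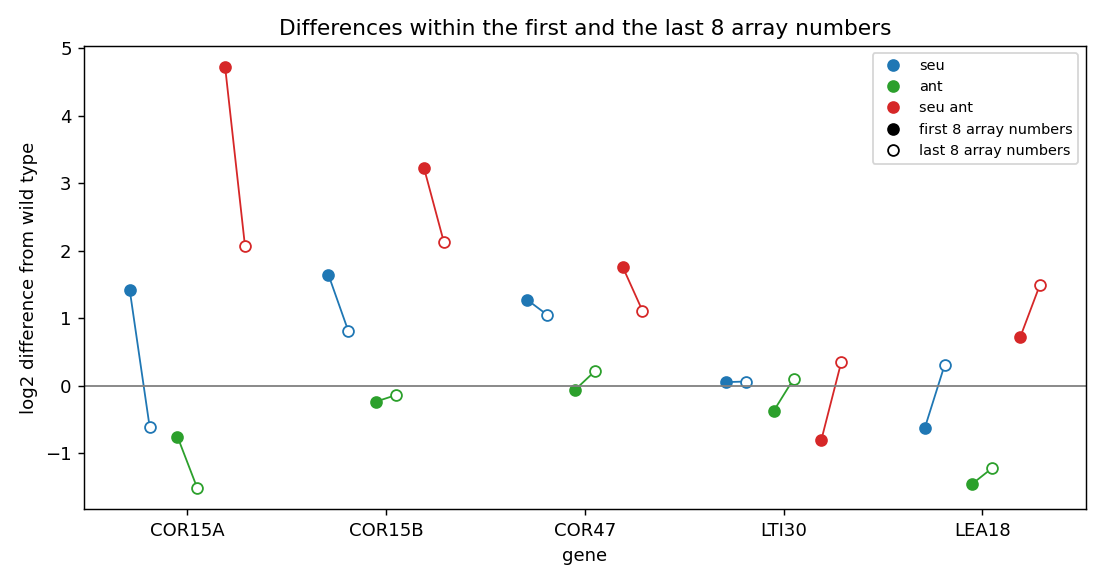
Log2 difference from wild type (vertical axis) of each gene (horizontal axis) in seu, ant and seu ant, computed within the first 8 (filled) and the last 8 (open) array numbers, 2 arrays per genotype in each; lines join the 2 values. The seu ant value of COR15A is 4.73 in the first 8 and 2.07 in the last 8.

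For each member, the 3 genes with the most similar pattern over the 16 arrays were listed among 10055 probe sets above the floor on at least 8 arrays. COR15A was closest to AT3G05180 (Pearson's r = 0.95), ECS1 (0.94) and AT5G38980 (0.94), and COR15B to AT3G19850 (0.97), AT4G16190 (0.96) and AT5G39410 (0.96). COR47 was closest to AT1G11410 (0.90), AT3G49210 (0.89) and AT1G04660 (0.88). The nearest to LEA18 was TIL, which codes for a temperature-induced lipocalin (0.87), followed by AT5G67390 (0.87) and AT3G12290 (0.86). LTI30 had no neighbour as close, with AT4G36610 at 0.74, AT1G22060 at 0.72 and AT5G27710 at 0.72. With genotype means removed, the correlation with the first-named gene was 0.78 for COR15A, 0.47 for COR15B, 0.84 for COR47, 0.86 for LTI30 and 0.46 for LEA18. All arrays share their scaling and their 4 genotypes, and the values are descriptions.

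Other genes of the cold and dehydration response were read from lists, few of whose members have a probe set named here. Only those genes are called measured, and the others may still have a probe set on the array. ERD10, the dehydrin next to COR47 on chromosome 1, and XERO1, the one next to LTI30 on chromosome 3, are not analysed here, and neither are COR413-PM1 and RD20. Of 10 listed dehydrins 4 were measured beside the members, and in seu ant 1 of them rose and none fell, beside the 8.3% of all probe sets called higher and 11.4% called lower. HIRD11 (AT1G54410), a small histidine-rich dehydrin, was 0.89 above wild type (standard error 0.08, limma adjusted p = 1.03e-05) and also rose in seu by 0.42 (limma adjusted p = 0.0182). AT2G21490, AT4G38410 and AT4G39130 were not called in seu ant, with -0.70, 0.31 and -0.17. They lay at the floor on 8, 4 and 11 of the 16 arrays. AT4G38410 lay below the additive level, at -1.79 (limma adjusted p = 0.0342), and HIRD11 above it, at 0.53 (limma adjusted p = 0.0232). The AT4G38410 value depends on the floor, where 2 wild-type and 2 seu ant arrays lay. Its genotype means ran only from 4.26 to 5.32 on the log2 scale, and no other floor was tried for it. Neither LEA6 (AT1G32560) nor LEA4-5 (AT5G06760), the other LEA_1 genes, was called. LEA6 was at the floor on 12 of 16 arrays and LEA4-5 on all 16.

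Of 17 other cold-regulated genes 2 were measured. BAM3 (AT4G17090), a chloroplast beta-amylase, was 2.84 above wild type in the double mutant (standard error 0.35, limma adjusted p = 8.58e-05) and 1.75 above it in the seu single mutant (limma adjusted p = 0.0193), and GOLS2 (AT1G56600), which makes galactinol, had -0.07 and lay at the floor on 14 of 16 arrays. Among 18 listed regulators of the cold response 4 were measured, and 1 of these fell in seu ant, where 11.4% of all probe sets were called lower: HOS1 (AT2G39810), a ubiquitin ligase that restrains cold signalling, by 0.49 (limma adjusted p = 0.0254). SIZ1, CAMTA1 (AT5G09410) and ZAT10 (AT1G27730) were not called, and ZAT10 lay at the floor on 14 of 16 arrays. CBF genes are not analysed here. RD21A (AT1G47128), a dehydration-responsive cysteine protease and the 1 measured of 8 dehydration and abscisic acid targets, rose by 0.75 (limma adjusted p = 0.00258). Of 10 seed LEA and storage genes the 3 measured were not called and lay at the floor on nearly all arrays. No gene of the abscisic acid synthesis (11 genes) or signalling (18 genes) lists had a probe set named here.

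**Figure D4:**
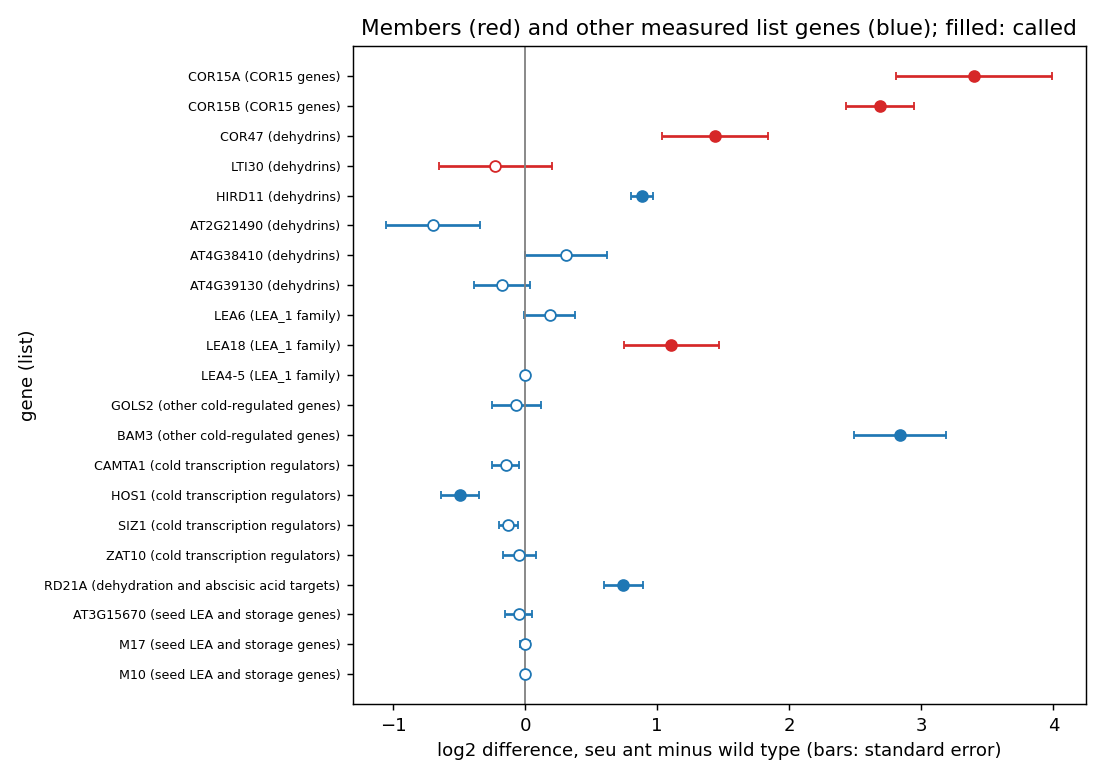
Log2 difference of seu ant from wild type (horizontal axis) with its standard error, for the 5 members (red) and the other measured genes of 6 lists (blue), named on the vertical axis with their list; filled points were called. BAM3, HIRD11 and RD21A are the blue points called to the right of 0, and HOS1 is the 1 called to the left.

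Markers of cell types and of RNA quality were read beside these results. Of 7 guard cell and stomatal markers 4 were measured, and their summed signal lay between 52.0 and 99.7 on wild-type arrays, between 88.8 and 158 on seu arrays, between 107 and 222 on ant arrays and between 200.3 and 438 on seu ant arrays. SPCH, needed for entry into the stomatal lineage, was 2.61 higher in seu ant than in wild type (limma adjusted p = 0.000619), whereas MUTE, FAMA and GC1 were not called and lay at the floor on many arrays. The gynoecium markers SPT and NGA3, 2 measured of 11, both fell in seu ant, where 11.4% of all probe sets were called lower. Their sum was 1049 to 1509 in wild type and 403 to 585 in seu ant, and the other genes of that list were not read here. Tapetum and pollen wall markers, 3 measured of 13, had sums of 15.7 to 90.5 in wild type and 17.1 to 45.6 in seu ant, with 9 of 12 seu ant values at the floor. The 2 measured ovule markers of 6 summed to 27.7 to 78.8 in wild type and 9.2 to 57.8 in seu ant. GI, the 1 measured clock gene of 12, differed by 0.10 in seu ant (limma adjusted p = 0.679). The log2 ratio of 3-prime to 5-prime signal was 1.87 to 3.09 for actin and 0.49 to 1.02 for GAPDH over all arrays, with overlapping ranges in the 4 genotypes. The part of cell composition, of harvest time and of RNA quality in the members' differences was not tested.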

How the data were processed

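RNA from 16 pools of gynoecia was hybridized to ATH1 arrays, 4 per genotype, and samples were grouped by the genotype in their labels. The authors deposited linear signal intensities from MAS5 (the sources used here do not give its version), scaled so that each array has a 2% trimmed mean of 500.04 to 500.05. The authors' own tests used other values, loess-normalized in JMP Genomics. MAS5 detection calls are not used here.

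After removal of 64 AFFX controls, signals were raised to at least 16 and converted to log2. The other 22746 probe sets were fitted with 1 mean per genotype over the 16 arrays and moderated in limma 3.58.1 (R 4.3.3), with Benjamini-Hochberg adjustment over all of them, and the fit was tested on simulated data. The prior had 1.04 degrees of freedom, and 567 probe sets that lay at the floor throughout were kept. Plots used matplotlib 3.10.9 (Python 3.11.15). The number of arrays limits the precision. Names came from the platform annotation (13436 probe sets) and an annotation column of the study's supplement (348), and 503 probe sets with several genes were not named. Gene order came from the RefSeq table of assembly TAIR10.1. The array files name no genome build.

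Named in the text are the 5 members, up to 4 genes of each list with the largest difference in seu ant, and the 3 genes most like each member. Members and lists were chosen with earlier results of these data known. A list of genes with cold, drought or LEA words in their names was added after the data were seen, by name alone. Genes named from that list do not follow the rule of the largest difference in seu ant. Among them, DI19 is named for its difference in ant. Alternatives were another floor or offset, median centring, quantile normalization, a filter on dim probe sets, no moderation, an intensity trend, array weights, the first and last 8 array numbers as a block, fits of only the genotypes compared, other thresholds, linear additivity and leaving out each array. A gene with several probe sets was read at its brightest.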

Additional observations from a re-analysis of the deposited data

Results flagged for a closer look

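In 4 groups of 4 arrays, 1 array stood apart from the other 3 on the log2 scale, as judged by its gap to the nearest array divided by the range of the group. For COR15A the lowest seu array (replicate 4) had a ratio of 0.945, and for COR15B the lowest seu array (replicate 3) had 0.934. The highest seu ant array of LTI30 (replicate 4) had a ratio of 1, since the other 3 lay at the floor. For LEA18 the lowest seu ant array (replicate 1) had 0.902. Among groups of 4 normally distributed values, chance alone flags about 1 in 20. That rate does not hold for groups with values set to the floor, as for LTI30.

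Relative to the single mutant effects added on the log2 scale, 3 members differed in the double mutant. The non-additivity was 4.12 for COR15A, 1.64 for COR15B and 2.60 for LEA18, the last with all 4 ant arrays at the floor. In the main fit on the log2 scale, the effect of ant-1 thus differed between the wild-type and the seu-3 background for these transcripts. COR15A missed the threshold with additivity on the linear signal (limma adjusted p = 0.0891), and LEA18 with a floor of 32 (limma adjusted p = 0.0501).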

How the results depend on the processing

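The calls of COR15A and COR15B in seu ant against wild type, seu and ant were kept under each alternative fit and without each array in turn. At an adjusted p under 0.01, 2 members were called higher in seu ant than in wild type and 0 were called higher in seu or above additivity, and 0 lower in ant. When only the genotypes compared were fitted, 2 members were called higher in seu ant than in wild type, and 0 in seu against wild type or against ant. The fall of LEA18 in ant was lost, leaving 0 members called lower, with a floor of 32 (log2 difference -0.36), median centring, quantile normalization, no moderation, array weights or the first and last 8 array numbers as a block. Its rise in seu ant over wild type was lost with log2(signal + 16) (limma adjusted p = 0.0797), quantile normalization (0.0656), no moderation (0.0568) and array weights (0.0502), and that over seu with quantile normalization (0.0803), no moderation (0.0533) and only the genotypes compared (0.149). COR47 in seu ant lost its call against ant with a floor of 32 (limma adjusted p = 0.109), array weights (0.0672) and only the genotypes compared (0.0953). Leaving out 1 array gave 0 to 1 members higher in seu, 0 to 1 lower in ant, 2 to 4 higher in seu ant and 1 to 2 higher in seu against ant. Shares of all probe sets are given for the main fit only, so the member counts in this paragraph have no such share beside them. Without seu replicate 2, LEA18 was called higher in seu than in ant (1.56, limma adjusted p = 0.0146).

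Signs turned only for differences that were not called. With a floor of 32, LTI30 had -0.14 in seu and 0.012 in seu ant against wild type, 0.16 in seu ant against seu, 0.12 against ant, -0.032 in seu against ant and 0.27 for non-additivity, and LEA18 had 0.062 in seu. Median centring gave LTI30 0.023 in ant. Array weights gave LTI30 0.039 in ant and 0.13, 0.013 and 0.090 in seu ant against wild type, seu and ant, and COR47 -0.091 for non-additivity. Without 1 array, LTI30 ranged from -0.15 to 0.38 in seu, -0.35 to 0.18 in ant, -0.64 to 0.10 in seu ant, -0.50 to 0.13 in seu ant against ant and -0.56 to 0.068 for non-additivity. COR47 ranged from -0.16 to 0.29 in ant, -0.11 to 0.49 in seu ant against seu and -0.19 to 0.43 for non-additivity, and LEA18 from -0.38 to 0.23 in seu. The causes were not tested. LTI30 had no value under the filter on dim probe sets, and signals near the floor limit COR47, LTI30 and LEA18. They also limit the COR15A differences that involve ant. With a floor of 32, COR15A in ant differed from wild type by -0.64. No paired analysis was possible because the labels give no replicate numbers that could link samples across genotypes.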

Other observations

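Beside the members, 16 genes with a probe set named here carry a word for cold, drought, dehydration or late embryogenesis in their names. They include HIRD11, AT2G21490, LEA6, LEA4-5 and RD21A, already described. Among the 16, 4 rose in seu ant against wild type, HIRD11 and RD21A among them, and none fell, beside 8.3% of all probe sets called higher and 11.4% called lower. The median log2 difference of the 16 was 0.03. AT2G46140 (LEA27), a late embryogenesis abundant protein, rose by 1.94 (standard error 0.20, limma adjusted p = 2.3e-05) and was also higher in seu, by 1.06 (limma adjusted p = 0.0149). AT2G44060 (LEA26), another LEA protein, rose by 0.61 (standard error 0.12, limma adjusted p = 0.00204). COR27, a cold-regulated gene with a clock-linked pattern, had a log2 difference of 0.00 (limma adjusted p = 1) and lay at the floor on 7 of 16 arrays.

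In ant, 1 of these 16 genes was lower than in wild type and none was higher, where 3.03% of all probe sets were called lower and 1.89% higher. This was DI19 (AT1G56280), a drought-induced zinc-finger protein, which fell by 1.09 (standard error 0.27, limma adjusted p = 0.0375) and was 0.93 higher in seu ant than in ant (limma adjusted p = 0.0272). Its means were 12.22 in wild type, 11.13 in ant and 12.06 in seu ant on the log2 scale.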
